A study of Rattus norvegicus with 34 samples.

Results

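Of the 384 assay positions of TaqMan card A, 80 were detected in 1 to 4 of 12 rat tissues and are called few-tissue positions here. They were chosen on their own values in these tissues. A position was taken when its Cp was at most 35, the detection limit of the study's methods, in 1 to 4 tissues. The 4 repeated positions (11, 12, 35, and 36) and 12 further positions that the rule lists by number were left out, and all the rest are called usable positions. The few-tissue positions were 21.7% of these. Of the other usable positions, 67 were detected in no tissue, 143 in 5 to 11 tissues, and 78 in all 12. Of the 12 positions left out by number, 1 was found in 2 tissues and 1 in 4, and the others were outside the range.

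Cp is the PCR cycle at which the fluorescence of a well crosses the threshold. The lower the Cp, the more template was in the well. A well that never amplified has the value 50 in the files. Each tissue was measured in 1 library, so no value has a replicate error. The tissues were heart, skeletal muscle, lung, spleen, liver, bile duct, pancreas, small intestine, kidney, prostate, salivary gland, and lacrimal gland of untreated Sprague-Dawley rats of 4 weeks. The animals were male and female, and neither the sex behind a library nor the number of animals in it is given. The rule did not use 5 further samples from rats of this strain and age, cut out by laser microdissection and preamplified for 12 cycles: bronchial gland (from trachea), mammary gland, intestinal villus, and proximal tubule and glomerulus of the kidney. In whole tissues, fewer cells of a type and less RNA per cell cannot be told apart.

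MicroRNAs are short RNAs that guide the silencing complex to messenger RNAs and lower their translation or stability. Many are made in most cells. Others are made in a few cell types, because their genes lie under cell type-specific promoters or inside host genes with narrow expression, and such miRNAs serve as tissue markers in body fluids. A position seen in few tissues can hold such an assay, and it can also hold an assay whose signal lies close to the detection limit in every tissue. The files of values number the positions without naming the miRNAs, and the array definition was not used here. Positions are therefore given by number, no sequence is shown, and the tissue labels were not checked against marker miRNAs.

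The 80 positions were mostly late. Of their 960 tissue wells, 182 were detected, 200 amplified after Cp 35, and 578 did not amplify. The lowest Cp of a position over the tissues was between 26.1 and 34.997, with a median of 32.1. It was under 32 in 39 positions, against 69.8% of all usable positions, from 32 to 34 in 28, and from 34 to 35 in 13. These values chose the positions and are a description.

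Detection was in 1 tissue for 30 positions (8.15% of the usable positions), in 2 tissues for 16, in 3 for 16, and in 4 for 18. The median of the lowest Cp was 33.1, 32.6, 31.3, and 29.99 in this order. Of the 30 positions of 1 tissue, 9 had a Cp under 32 and 12 lay between 34 and 35. The late values lay mostly in the positions of 1 tissue, while the lowest Cp was under 32 in 14 of the 18 positions of 4 tissues. The lowest of several detected values tends to be lower than a single one. This order is therefore partly built in by the measure and is a description only.

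**Figure D1:**
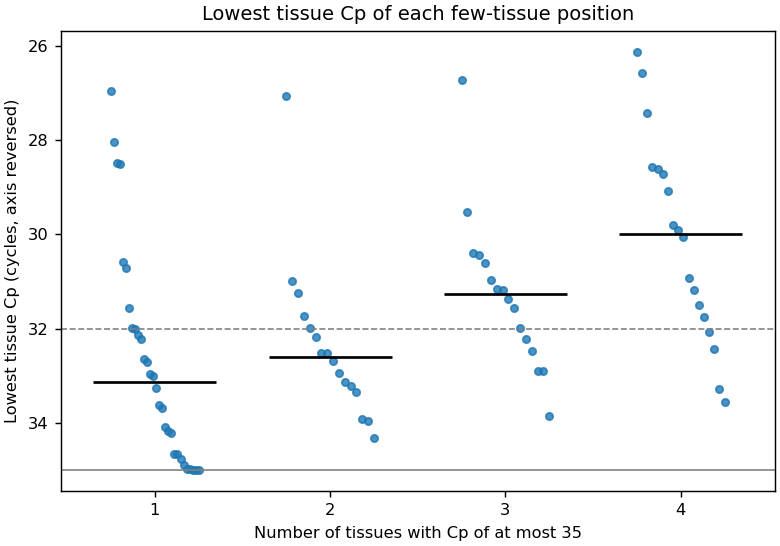
Lowest tissue Cp of each of the 80 few-tissue positions (1 point each, cycles, axis reversed) by the number of tissues in which it was detected. Black lines are medians (33.1, 32.6, 31.3, and 29.99), the dashed line is Cp 32, and the solid line is the limit of 35. The points at the limit are positions of 1 tissue, and a lowest value over more tissues tends to be lower.

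At the limit itself, small differences set membership. Positions 287 and 243 entered through kidney alone at 34.997 and 34.994, and position 294 through heart alone at 34.990. Position 26 stayed outside because lung, as 1 of 5 tissues, had a Cp of 34.994. Position 336, detected in no tissue, had 35.097 in kidney, and position 204 had its nearest value at 34.788 in lacrimal gland as 1 of 5 tissues. With a limit of 34.95, 5 positions were lost and 1 gained, and with 35.05, 1 was lost.

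Over the usable positions, 41 tissue values lay within 0.05 cycles of 35, 27 of them at or below it, and 33 of the 41 came from heart, kidney, liver, lung, small intestine, spleen, and skeletal muscle. In these 7 tissues no well amplified after Cp 43, and they are called low-ceiling tissues. The other 5 (bile duct, pancreas, prostate, and the lacrimal and salivary glands) had values above 43 and are called high-ceiling tissues. The labels give no cycle number, and the classes were read from the values. Detected wells of few-tissue positions with a Cp over 32 lay within 0.05 cycles of a whole cycle in 34.1% of 85 wells in the low-ceiling tissues (95% Wilson confidence interval 24.9% to 44.7%) and in 10% of 40 wells in the high-ceiling tissues (3.96% to 23.1%). Evenly spread values would give 10%. At positions detected in 5 or more tissues the shares were 25.2% of 306 wells and 12.2% of 213 wells. The limit of 35 is a whole cycle, so such values lie close to it on either side.

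The positions with the lowest Cp included some of clear contrast. Prostate alone held positions 326, 304, and 325. Position 326 had a Cp of 26.9 in prostate, 35.9 in liver, and 37.4 in bile duct, and did not amplify in the other 9 tissues. Position 304 had 28.5 in prostate and 43.9 in bile duct, and position 325 had 28.5 in prostate, both without amplification in any other tissue. Positions 326 and 304 were therefore separated from the next tissue by many cycles, and position 325 amplified in no other tissue, although each value is 1 well. Pancreas alone held position 363, at 28.05, with late values of 39.8 in lacrimal gland and 41.2 in salivary gland and no amplification in the other 9. Over all positions of 1 tissue, the gap to the next tissue was at least 3 cycles in 20 of 30, with wells that did not amplify counted as 50. This count therefore includes positions close to the limit, such as 287, at 34.997 in kidney and without amplification in any other tissue. By the rule, every other tissue of these positions lay above 35.

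Lacrimal and salivary gland shared 3 positions, 77, 146, and 262, while salivary gland shared 5 with skeletal muscle. Position 146 had a Cp of 27.1 in lacrimal gland and 32.7 in salivary gland, then 35.9 in pancreas and 44.3 in prostate, and did not amplify in the other 8 tissues. Position 77 was detected in lacrimal gland (29.9), bile duct (30.8), salivary gland (31.3), and prostate (32.2). It was late in pancreas (40.3) and did not amplify in the 7 low-ceiling tissues. Position 262 was led by skeletal muscle (30.97), with 34.2 in lacrimal gland and 34.95 in salivary gland.

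A row of neighbouring positions was shared by pancreas and small intestine. Position 131 had a Cp of 30.1 in small intestine, 30.8 in lacrimal gland, 34.4 in prostate, and 34.8 in pancreas. Position 132 had 27.4 in pancreas, 30.98 in small intestine, 31.5 in lacrimal gland, and 33.99 in lung. Position 133 had 28.7 in pancreas, 28.8 in small intestine, 32.9 in bile duct, and 33.9 in lacrimal gland. Pancreas, lacrimal gland, and small intestine were thus common to all 3, while kidney, liver, heart, skeletal muscle, and spleen showed no amplification in any of them. Position 57, elsewhere on the card, was detected at 26.7 in pancreas, 29.0 in small intestine, and 34.8 in bile duct.

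Positions 109 and 110 were also neighbours and were both detected in kidney, prostate, and skeletal muscle. Position 109 had a Cp of 26.1 in prostate, 28.5 in kidney, 29.0 in skeletal muscle, and 34.7 in spleen, with 35.6 in lung just past the limit. Position 110 had 29.8 in kidney, 30.9 in lacrimal gland, 31.4 in prostate, and 33.0 in skeletal muscle, with 36.01 in spleen. Pancreas, heart, and small intestine showed no amplification at either.

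Further positions of low Cp joined tissues of other kinds. Position 45 was led by lung at 26.6, followed by heart at 33.0 and by spleen and prostate at 34.5 and 34.6, and late values between 35.9 and 39.0 were present in 6 of the other 8 tissues. Position 344 was detected in heart (28.6), small intestine (30.1), lung (30.96), and spleen (31.995). Position 345 was led by bile duct at 28.6, with lung, pancreas, and salivary gland between 33.9 and 34.8 and kidney at 35.03, just outside. Position 311 was detected in liver (29.1), small intestine (30.1), kidney (32.7), and bile duct (32.7). Position 65 was detected in small intestine (29.5), heart (32.1), and kidney (33.0) and did not amplify in the other 9 tissues. The position with the lowest Cp in spleen was 216, at 30.4, with 33.4 in kidney and 33.7 in lung, and in salivary gland it was 203, at 31.2.

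**Figure D2:**
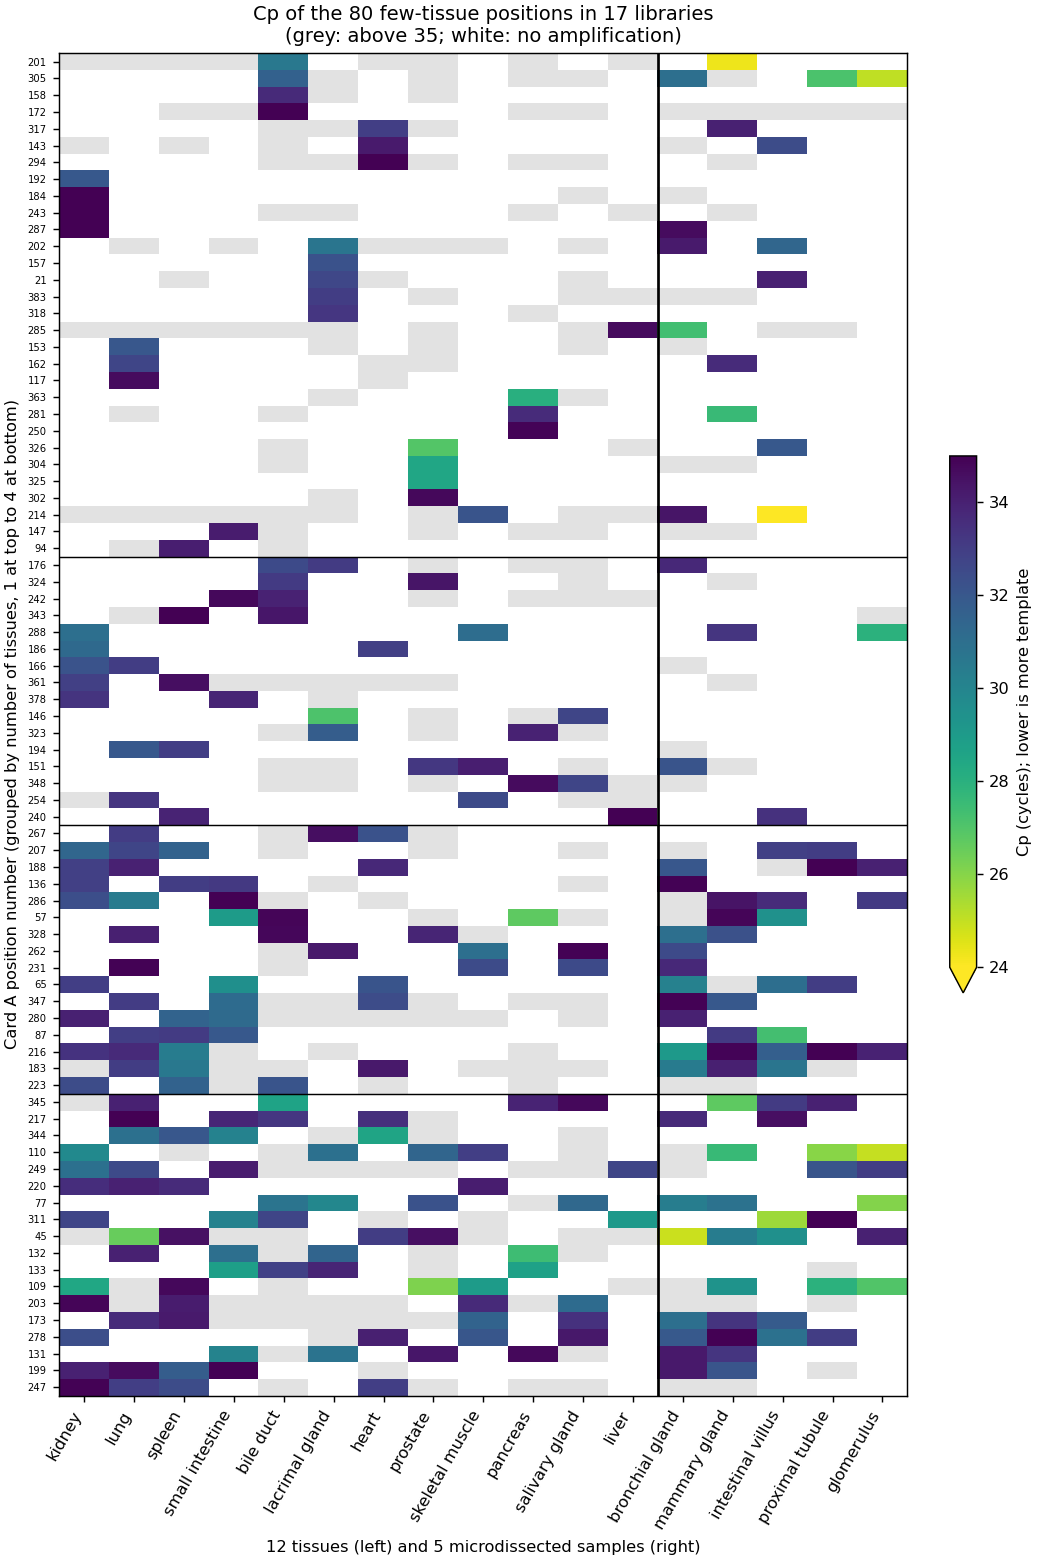
Cp of the 80 few-tissue positions (rows, by position number) in the 12 tissues and, right of the line, the 5 microdissected samples (columns). Colour gives Cp of at most 35 in cycles (lighter is lower), grey marks amplification after 35, and white marks no amplification. Kidney and lung have 26 coloured wells each and liver has 4, and grey wells are most frequent in bile duct, salivary gland, and prostate.

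Kidney and lung each held 26 of the 80 positions, spleen 20, small intestine 18, and bile duct 16. Of all usable positions, 62.5%, 64.7%, 62%, 60.9%, and 59.2% were detected in these tissues. Lacrimal gland held 15, heart 14, prostate 12, and skeletal muscle 12, where 52.2%, 56.8%, 50.3%, and 55.2% of all were detected. Pancreas held 10, salivary gland 9, and liver 4, where 31.8%, 54.1%, and 45.4% of all were detected. The rule used these wells, and the background shares are given for reading the counts only.

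The few-tissue positions were 11.3% of the detected positions in kidney and 10.9% in lung, and between 2.40% and 8.77% in the other 10 tissues, lowest in liver. The number of positions under Cp 32 followed another order, with 10 in small intestine, 7 each in kidney, lacrimal gland, and spleen, and 1 each in liver and heart. Positions found in 1 tissue were 5 in lacrimal gland, 4 each in kidney, prostate, and bile duct, 3 each in pancreas, lung, and heart, and 1 each in liver, skeletal muscle, spleen, and small intestine. Salivary gland had none. Kidney, with 26 positions, thus shared 22 of them with other tissues.

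The sets of tissues were diverse. The 50 positions of 2 or more tissues fell into 48 different sets, and no set held more than 2 positions. The sets with 2 positions were kidney, spleen, and small intestine (136 and 280) and kidney, lung, and spleen (207 and 216). Each of the 16 positions of 2 tissues had a set of its own, among 66 possible pairs.

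Pairs of tissues within these sets were less even. Kidney and spleen shared 11 positions, and lung and spleen also shared 11, which were 42.3% of those of kidney or lung and 55% of those of spleen. Kidney and lung shared 9, or 34.6% of each. Lung and heart shared 8, which were 30.8% of those of lung and 57.1% of those of heart. The median over the 66 pairs was 2 positions, and 14 pairs shared none. Kidney, lung, and spleen were also the tissues with the most few-tissue positions, and 62.5%, 64.7%, and 62% of all usable positions were detected there. Sharing over all usable positions was not counted, so these counts are not read as a likeness of tissues.

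The counts overlapped between the classes of ceiling. The high-ceiling tissues held 12.4 ± 3.05 positions (SD, n = 5 tissues), from 9 to 16, and the low-ceiling tissues 17.1 ± 7.90 (SD, n = 7), from 4 in liver to 26. The 80 positions were divided into 37 detected in low-ceiling tissues only, 22 in high-ceiling tissues only, and 21 in both. Positions of 1 tissue, 14 in low-ceiling and 16 in high-ceiling tissues, can only fall in 1 class. The same division was not made over all usable positions. Wells that amplified after Cp 35 numbered 18 to 32 of 80 in each high-ceiling tissue and 6 to 14 in each low-ceiling tissue, ranges that do not overlap. The classes were themselves set by the latest values of each library, so this difference is partly built in. Late wells were not counted over all usable positions. The part of the ceiling in the sets was not tested.

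The number of few-tissue positions in a tissue rose with the number of all positions detected there, from 129 in pancreas to 253 in lung (Pearson's r = 0.74, Spearman's rho = 0.90, n = 12 tissues). These are descriptions over single libraries, and the 2 numbers share their wells. Without the few-tissue positions in the number of detected positions, r was 0.62 and rho 0.87. Pancreas and liver were the 2 tissues farthest from the median of 219 detected positions. Without them, r was 0.85 and rho 0.88 with all detected positions, and 0.71 and 0.84 without the few-tissue positions in that number. Within the 7 low-ceiling tissues r was 0.95 and rho 0.99 with all detected positions, and 0.91 and 0.85 without the few-tissue positions. The 5 high-ceiling tissues were held too few for a correlation, so none was computed. They held 10 (pancreas), 12 (prostate), 15 (lacrimal gland), 9 (salivary gland), and 16 (bile duct) few-tissue positions. Their detected positions numbered 129, 197, 205, 211, and 232 in this order. With all detected positions, those found in 1 tissue gave r = -0.02 and rho = 0.00 over the 12 tissues. Within the 7 low-ceiling tissues they gave r = 0.45 and rho = 0.60.

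**Figure D3:**
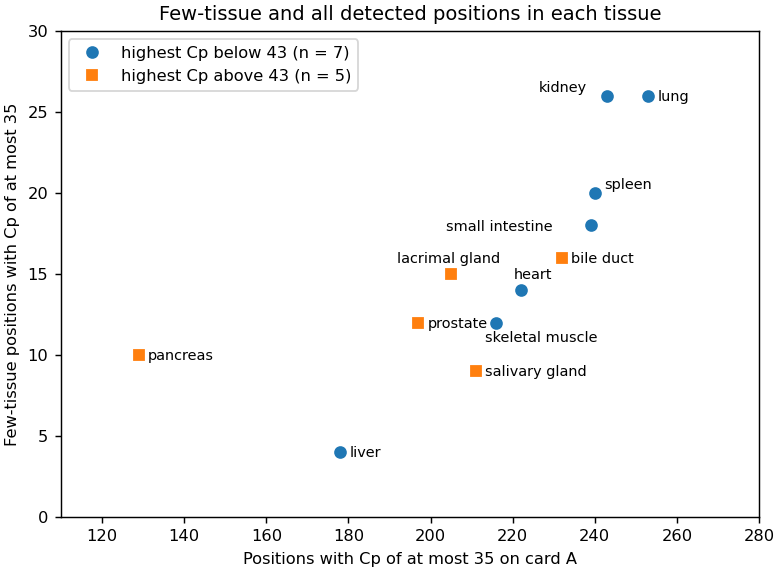
Few-tissue positions detected in each tissue (y axis) against all card A positions detected there (x axis), 1 point per tissue, coloured by whether the highest Cp of the library was above or below 43. Kidney and lung are highest with 26, liver is lowest with 4, and pancreas has 10 with 129 detected positions.

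The order of the tissues depended on where the limit was set relative to each library. The median Cp over usable positions detected in all 12 tissues was lowest in lung (24.5) and highest in pancreas (31.2). For a scaled limit, a like median was subtracted from Cp, over 84 positions that included some of those left out by number. With this limit, pancreas held 27 few-tissue positions and lung 5, kidney held 28, and rho fell to 0.31. With values up to Cp 40 counted as detected, bile duct held the most (23), and rho was 0.58. With the 125 positions of lowest Cp taken in every tissue, pancreas held the most (27), and 23 of the 80 positions were still in the set. With a limit of 32, lung held the most (30), and 39 of the 80 positions were still in the set.

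The microdissected samples were not used by the rule. Bronchial gland had 24 of the 80 positions, mammary gland 21, and intestinal villus 19, while proximal tubule had 11 and glomerulus 10. The shares were 30% (95% Wilson confidence interval 21.1% to 40.8%), 26.3% (17.9% to 36.8%), 23.8% (15.8% to 34.1%), 13.8% (7.85% to 23.0%), and 12.5% (6.93% to 21.5%). Over all usable positions these samples had 64.7%, 60.6%, 56.8%, 48.4%, and 46.2% detected. The intervals cover counting error only, positions of a card are not independent replicates, and preamplification makes a Cp of 35 a different limit than in the tissues.

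Altogether 42 of the 80 positions, or 52.5% (41.7% to 63.1%), were detected in at least 1 of the 5 samples, against 73.6% of the usable positions. The share was 16.4% (9.42% to 27.1%) for the 67 positions found in no tissue, 97.9% (94.0% to 99.3%) for the 143 found in 5 to 11 tissues, and 100% (95.3% to 100%) for the 78 found in all. The few-tissue positions thus lay between these groups, and their intervals did not overlap with those of either neighbour. In glomerulus, 0 of the 67 positions found in no tissue were detected, which allows a share of up to 4.48% by the limit of 3 counts and 5.42% by the Wilson interval. With a limit of 30 in the microdissected samples, 15 of the 80 positions were detected in at least 1 of them, and 23 with a limit of 32.

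**Figure D4:**
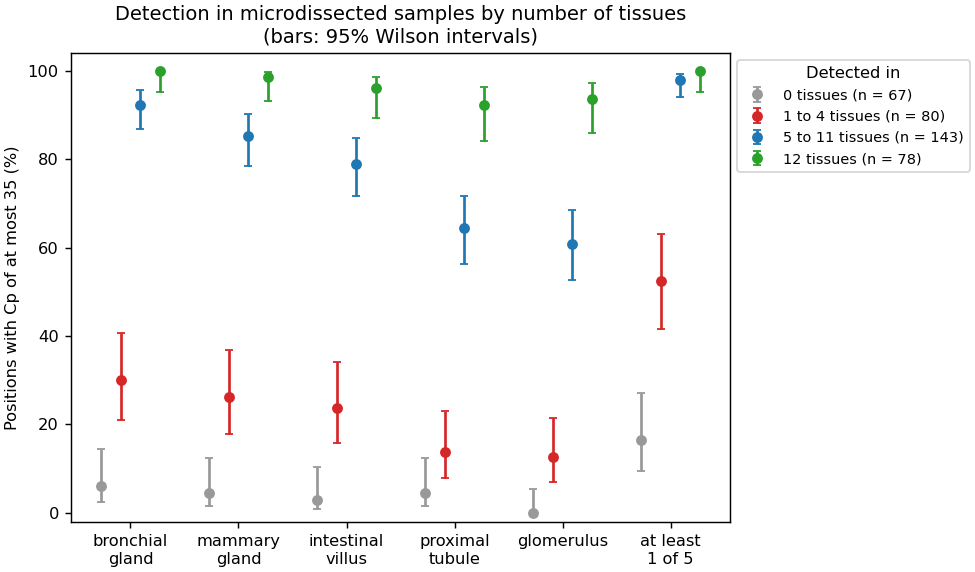
Share of positions with a Cp of at most 35 (y axis, percent) in each microdissected sample and in at least 1 of the 5, by the number of tissues in which the positions were detected. Bars are 95% Wilson intervals. The few-tissue positions (red) lie between those found in no tissue (grey) and those found in 5 to 11 tissues (blue).

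By number of tissues, 12 of 30 positions of 1 tissue, 4 of 16 of 2 tissues, 14 of 16 of 3 tissues, and 12 of 18 of 4 tissues were detected in at least 1 sample. The share was 64.1% (48.4% to 77.3%) of the 39 positions with a lowest tissue Cp under 32 and 41.5% (27.8% to 56.6%) of the other 41, intervals that overlap. Of the 80, 38 were found in no microdissected sample, 16 in 1, 13 in 2, 10 in 3, 2 in 4, and 1 in all 5. The position in all 5 was 216, at 29.1 in bronchial gland, 31.7 in intestinal villus, 33.95 in glomerulus, 34.9 in mammary gland, and just under 35 in proximal tubule. Positions 45 and 278 were found in 4. Position 45, led by lung among the tissues, had 24.9 in bronchial gland, 29.5 in intestinal villus, 30.4 in mammary gland, and 34.01 in glomerulus. Position 278 had 30.9 in intestinal villus, 31.9 in bronchial gland, 32.99 in proximal tubule, and just under 35 in mammary gland.

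Several positions of the lowest Cp were absent from all 5 samples at the limit. They included 304 and 325 of prostate, 363 of pancreas, 146 of lacrimal and salivary gland, 132 and 133 of pancreas and small intestine, and 344. No microdissected sample came from prostate, pancreas, lacrimal gland, or salivary gland. Positions 132, 133, and 344 were, however, detected in small intestine, the organ of the villus sample. The reason for the absences was not tested. Position 326 of prostate was found at 31.96 in intestinal villus.

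Proximal tubule and glomerulus shared more of the positions of kidney than of the other positions. Of the 26 positions detected in whole kidney, 11, or 42.3% (25.5% to 61.1%), were detected in proximal tubule or glomerulus, 5 of them in both. Of the 54 not detected in kidney, 4, or 7.41% (2.92% to 17.6%), were. Over the usable positions, 52.4% were detected in proximal tubule or glomerulus, 79.1% of the 230 positions of kidney and 7.97% of the 138 others. The same shares in liver were 2 of 4 against 17.1%, and in the other 10 tissues they were between 10% and 33.3%, with intervals that overlap with those of positions outside the tissue. Among the 34 positions of 3 or 4 tissues, 10 of the 17 with kidney and 3 of the 17 without it were found in proximal tubule or glomerulus. None of the 4 positions found in kidney alone was. Taken singly, proximal tubule had 34.6% (19.4% to 53.8%) of the kidney positions and 3.70% (1.02% to 12.5%) of the others. Glomerulus had 26.9% (13.7% to 46.1%) and 5.56% (1.91% to 15.1%), intervals that overlap. The share was higher for liver in proximal tubule (2 of 4 positions) and for prostate in glomerulus (33.3% of 12) than for kidney.

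The kidney result rested on late wells. With a limit of 32 or of 30 in the microdissected samples, 3 of the 26 positions and 2 of the other 54 were detected. The 3 positions of kidney were 109, 110, and 288. Position 110 had a Cp of 24.96 in glomerulus and 25.9 in proximal tubule, against 29.8 in kidney. Position 109 had 27.0 in glomerulus and 27.9 in proximal tubule, against 28.5 in kidney, and position 288 had 27.9 in glomerulus, against 30.99 in kidney. Outside kidney, position 305 had 25.1 in glomerulus and 27.1 in proximal tubule, while bile duct (31.6) was its only tissue and kidney did not amplify. Position 77 of the glands had 26.1 in glomerulus and no amplification in proximal tubule.

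**Figure D5:**
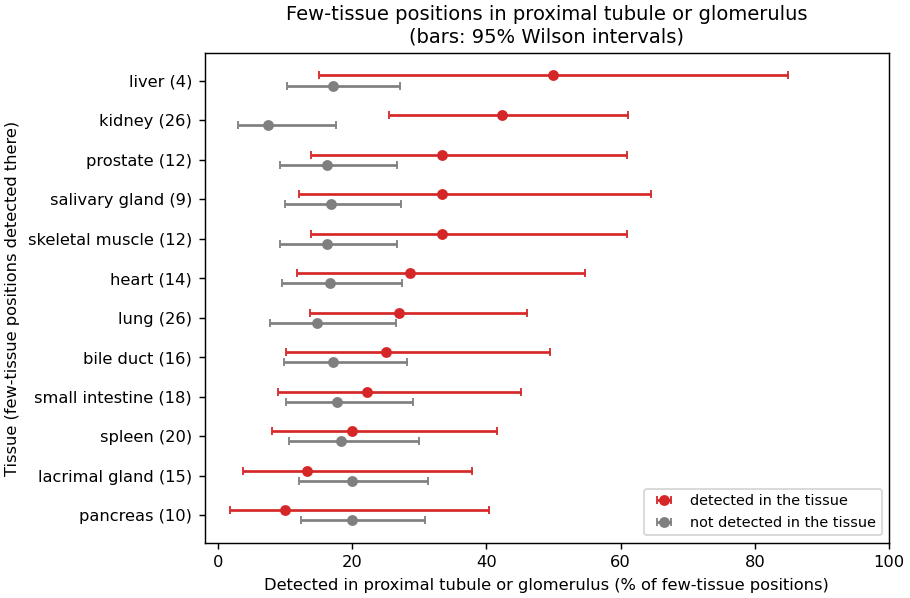
Share of few-tissue positions detected in proximal tubule or glomerulus (x axis, percent), for positions detected in each tissue (red, number in brackets) and not detected in it (grey). Bars are 95% Wilson intervals. They are separate for kidney (42.3% against 7.41%) and overlap for the other 11 tissues. Their width depends on the number of positions, which was only 4 in liver (50% against 17.1%). Positions are not replicates, so overlap is no test between tissues.

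The intervals overlapped for intestinal villus and small intestine. Of the 18 positions detected in small intestine, 6 were detected in intestinal villus, or 33.3% (16.3% to 56.3%), and of the other 62 positions, 13 were, or 21.0%. Over the usable positions, 83.9% of those of small intestine and 14.6% of the others were detected in villus. Among the 6 were position 311, at 25.6 in villus and 30.1 in small intestine, position 57, at 29.5 and 29.0, and position 65, at 31.04 and 29.5. Positions 132, 133, 131, and 344 of small intestine were not detected in villus. Bronchial gland held 10 of the 26 positions of lung, or 38.5% (22.4% to 57.5%), and 14 of the other 54, or 25.9%, against 89.9% and 18.5% over the usable positions. It was cut from trachea, and lung is not its organ.

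A few wells of the microdissected samples came earlier than those of all tissues. For this comparison each library was scaled to its median Cp over the 72 positions detected in all 17 libraries and outside the positions left out. Of the 85 detections of few-tissue positions in these samples, 9 came earlier than the lowest scaled value of the tissues in which the same position was detected, 6 of them by at least 3 cycles, and the median detection came 5.08 cycles later. Single wells were set here against the lowest of the tissue values that the rule had used, so a later median is partly built in. The 6 wells earlier by at least 3 cycles belonged to 4 positions. Position 214 came 10.3 cycles earlier in intestinal villus, with a Cp of 16.3, the 7th lowest of that card. In the tissues it was detected in skeletal muscle alone (32.1), with late values in 9 others, among them small intestine at 38.9. Position 305 came 6.97 cycles earlier in glomerulus and 4.95 in proximal tubule. Against its late well in pancreas (36.2), which is lower than bile duct on this scale, it came 5.89 and 3.87 cycles earlier. Position 110 came 4.23 and 3.26 cycles earlier in the same samples. Position 201 had 24.3 in mammary gland, 3.38 cycles earlier on this scale than in bile duct (30.6), its only tissue. Each of these is 1 well without a repeat.

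Few-tissue positions were not spread evenly over the card. In blocks of 48 consecutive positions they made up 4.55% of the positions from 1 to 48, 11.1% from 49 to 96, and 18.2% from 97 to 144. In the next blocks the shares were 33.3% from 145 to 192, 27.7% from 193 to 240, 31.3% from 241 to 288, 25.5% from 289 to 336, and 20% from 337 to 384. The first block had 0 positions found in no tissue and the block from 289 to 336 had 22. Of 24 pairs with consecutive numbers, 10, or 41.7%, had a tissue in common, against 38.2% of the 3136 other pairs, and 3, or 12.5%, had 2 or more in common, against 8.77%. These 3 were the pairs 109 and 110, 131 and 132, and 132 and 133.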

How the data were processed

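Cp was measured on TaqMan array card A, 1 card for each of 17 libraries. The series calls it a rodent card and the labels' protocol a human card. The deposited score values are Cp in cycles, which the authors read from the amplification curves with the instrument's software and gave without normalization, with 50 where a well did not amplify. Tissue RNA was isolated with TRIzol reagent and microdissected samples with the mirVana PARIS Kit. Card B carries other assays and was not used here. The depth of a card is given by its number of detected positions.

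Positions were counted at Cp of at most 35 without scaling. The positions, the detection limit, and the lists were chosen with earlier results of these data known. No test was made, because the rule used the tissue values and each sample has 1 library. Shares have 95% Wilson intervals, which cover counting error only. Named were the 15 positions of lowest Cp, the lowest of each tissue, those in 4 or 5 microdissected samples, those nearest the limit, and those sharing a set with at least 3 members, of which there were 0. Positions 77, 131, 136, 201, 207, 214, 262, 280, 288, and 305 were named after their values were seen. The counting step was run on simulated data in which nearly all other positions were detected in every tissue. It returned all 40 planted positions among 384, which checks the counting only and not the choice of limit. Limits, scalings, numbers of tissues, and single tissues left out were varied. The work was done with Python 3.11.15 (pandas 2.3.3, numpy 2.4.6, and scipy 1.17.1), and matplotlib 3.10.9 drew the plots.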

Additional observations from a re-analysis of the deposited data

How the results depend on the processing

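The number of few-tissue positions was 80, between 62 and 95 under 7 other settings, and between 78 and 87 with each tissue left out in turn. Positions of 1 tissue numbered between 21 and 43, and between 28 and 33 with each tissue left out. A limit of 32 by construction gave 95 positions with a lowest Cp under 32 in place of 39, values up to 40 gave 18, an equal number of positions per tissue gave 73, and 1 to 3 tissues gave 25. With each tissue left out it was between 38 and 43. The largest number in a tissue was 26, 17 with 1 to 3 tissues, and between 26 and 32 with each tissue left out. Spearman's rho between few-tissue and detected positions was 0.90, and 0.58 with values up to 40, 0.31 with the limit on scaled Cp, and between 0.87 and 0.94 with each tissue left out. It could not be computed with an equal number of positions per tissue. The share found in at least 1 microdissected sample was 52.5%. It was 82.1% with a limit of 32 in the tissues, 33.8% with values up to 40 there, and 84.2% with an equal number per tissue. These settings changed the tissue calls only. The limit in the microdissected samples stayed at 35, here and in the shares for villus and kidney below, so the limits were unequal. The share was 28.7% and 18.8% with limits of 32 and 30 in the microdissected samples. With each tissue left out it was between 51.9% and 56.6%. The share of small intestine positions found in villus was 33.3%. It was 77.8% with an equal number per tissue, 55% with a limit of 32, 50% with values up to 40, and 22.2% and 16.7% with limits of 32 and 30 in the microdissected samples, and between 30% and 35% with each tissue left out. With late tissue wells counted, an alternative chosen after seeing the data, the microdissected wells at least 3 cycles early stayed at 6. The share of kidney positions found in proximal tubule or glomerulus, varied after seeing the data, was 42.3%. It was 73.3% with a limit of 32, 100% with an equal number per tissue, and 11.5% with a limit of 32 or 30 in the microdissected samples. For the other positions the share was 7.41%, and 38.8%, 48.5%, and 3.70% under the same settings, and 2.22% with 1 to 3 tissues. With each tissue left out, these shares were between 39.3% and 44.8% and between 7.41% and 11.5%. The cause of these movements was not tested. Of 216 numbers per tissue under the alternatives, 186 were within 1.5 times the number at the limit of 35. Most of the 216 came from leaving a tissue out, and all of those were within this range. The 30 that moved beyond it all came from the 7 other settings. No paired analysis was possible because replicate numbers are absent from these single libraries.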

Other observations

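Of the 4265 amplified wells of card A in the 17 libraries, 2 carried an exactly whole Cp. Position 383, found in lacrimal gland alone, had a Cp of 33 there, and a position left out by number had 17 in pancreas. All other amplified wells were deposited with decimals. At position 383 the other tissues were late (37.8 in salivary gland, 37.9 in prostate, and 42.0 in liver) or did not amplify.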
